A study of Homo sapiens with 3 samples.

Results

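The regions described here are H3K4me3 peaks that lay inside protein-coding genes, away from the outer gene start but at another annotated transcript start. They were mapped by chromatin immunoprecipitation followed by sequencing in untreated cells of H2087, an established line derived from a human lung adenocarcinoma. One antibody recognised histone H3 trimethylated at lysine 4 (H3K4me3), and another histone H3 acetylated at lysine 27 (H3K27ac). Each mark had 1 library from this line, so values have no replicate and no test was made, and an input library was not analysed here. The outer gene start is the outermost 5′ end of a gene in GENCODE 44 on hg19. A member was a distinct H3K4me3 interval more than 3 kb from the outer start of every protein-coding gene and within 1 kb of another transcript start of a protein-coding gene. Of the 18585 H3K4me3 peaks, 1938 (10.4%, 95% interval 9.99 to 10.9) met this rule and are called inner-start peaks. They were compared with 11183 gene-start peaks, within 3 kb of an outer start, and with 5464 remaining distal peaks, which were near neither kind of start. Gene-start peaks could thus lie farther from their start than inner-start peaks, and 8517 of them lay within 1 kb. Unless stated, all gene-start peaks were used. Each inner-start peak was assigned to the gene of its nearest transcript start, which gave 1360 genes. Intervals are 95% intervals, exact for shares and medians and by Newcombe's method for differences. They cover the counting error alone, as if each peak were independent of its neighbours.

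Many human genes can be transcribed from more than one promoter, and the choice can change the untranslated leader, the start codon and the first domains of the protein. H3K4me3 is deposited around active transcription start sites and is densest at promoters rich in CpG dinucleotides. H3K27ac is deposited by the acetyltransferases p300 and CBP at active promoters and enhancers, so its presence next to H3K4me3 is often used to describe active regulatory regions.

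The inner starts under these peaks fell into sequences of very different CpG content, and 8 of them are shown for that reason. Each run is the reference sequence of hg19 from 170 bases before to 29 after the annotated transcript start, read 5′ to 3′ on the strand of the gene, with CG dinucleotides in capitals. The first 6 follow the rule for named genes, and those of NR3C1 and ERBB2 were added after their values had been seen. CCNY encodes cyclin Y, KRT8 keratin 8, ARVCF an armadillo-repeat catenin, RTF1 a subunit of the Paf1 elongation complex, ACTG1 cytoplasmic gamma-actin, NR3C1 the glucocorticoid receptor and ERBB2 the receptor tyrosine kinase HER2.
CCNY-203 (chr10:35625267-35625466, plus strand): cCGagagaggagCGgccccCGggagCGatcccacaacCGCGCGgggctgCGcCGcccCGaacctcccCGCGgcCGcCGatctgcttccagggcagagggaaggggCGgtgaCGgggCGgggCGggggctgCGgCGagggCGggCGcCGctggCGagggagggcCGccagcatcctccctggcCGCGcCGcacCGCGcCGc
KRT8-202 (chr12:53300815-53301014, minus strand): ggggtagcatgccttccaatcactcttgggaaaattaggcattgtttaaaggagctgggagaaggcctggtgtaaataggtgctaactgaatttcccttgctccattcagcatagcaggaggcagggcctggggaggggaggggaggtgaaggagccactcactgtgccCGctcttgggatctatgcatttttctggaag
ARVCF-202 (chr22:19974587-19974786, minus strand): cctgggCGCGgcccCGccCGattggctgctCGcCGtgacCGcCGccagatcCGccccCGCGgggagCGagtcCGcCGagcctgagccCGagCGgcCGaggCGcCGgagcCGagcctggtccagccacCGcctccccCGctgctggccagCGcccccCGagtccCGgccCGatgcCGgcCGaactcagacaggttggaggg
RTF1-202 (chr15:41709160-41709359, plus strand): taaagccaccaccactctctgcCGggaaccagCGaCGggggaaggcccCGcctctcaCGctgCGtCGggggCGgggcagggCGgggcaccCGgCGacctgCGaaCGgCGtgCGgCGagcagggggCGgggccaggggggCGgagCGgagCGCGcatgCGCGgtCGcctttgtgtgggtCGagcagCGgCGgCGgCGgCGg
FAM200A-202 (chr7:99149708-99149907, minus strand): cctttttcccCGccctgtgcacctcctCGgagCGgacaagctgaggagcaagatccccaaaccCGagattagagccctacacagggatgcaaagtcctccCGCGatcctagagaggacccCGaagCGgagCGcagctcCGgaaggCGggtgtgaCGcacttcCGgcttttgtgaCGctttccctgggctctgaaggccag
ACTG1-211 (chr17:79479147-79479346, minus strand): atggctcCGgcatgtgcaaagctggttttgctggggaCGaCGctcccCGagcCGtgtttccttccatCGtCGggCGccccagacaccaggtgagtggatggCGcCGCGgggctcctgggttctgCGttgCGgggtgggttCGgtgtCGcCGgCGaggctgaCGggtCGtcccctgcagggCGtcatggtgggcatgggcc
NR3C1-216 (chr5:142784859-142785058, minus strand): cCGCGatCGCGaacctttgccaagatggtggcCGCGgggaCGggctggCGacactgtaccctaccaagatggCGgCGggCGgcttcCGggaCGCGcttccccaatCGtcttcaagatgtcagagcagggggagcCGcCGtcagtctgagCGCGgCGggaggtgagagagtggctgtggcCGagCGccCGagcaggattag
ERBB2-209 (chr17:37859277-37859476, plus strand): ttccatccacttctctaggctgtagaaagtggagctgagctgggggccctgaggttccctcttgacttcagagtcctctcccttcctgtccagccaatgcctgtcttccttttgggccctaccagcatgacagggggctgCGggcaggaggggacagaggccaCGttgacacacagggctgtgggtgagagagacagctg
The windows of CCNY, ARVCF and RTF1 held 31, 28 and 30 CG dinucleotides. Those of NR3C1, ACTG1 and FAM200A held 23, 20 and 14. The ACTG1 transcript is annotated as a retained-intron transcript, and the peaks assigned to its start touched a coding exon of the canonical transcript. The KRT8 window held 1 and the ERBB2 window 2, although the peak at this KRT8 start was among the 8 strongest inner-start peaks.

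The strongest inner-start peaks, ranked by −log10 q (the significance of a peak in the authors' list), lay at starts of genes with varied roles. The highest value, 21.7, belonged to a 1016-bp peak at an inner start of ATP23, a mitochondrial protease gene (chr12:58335461-58336476). KRT8, whose product forms the intermediate filaments of simple epithelia, held the next (20.8) and another of the 8 highest (13.0). TNIP1, an inhibitor of NF-κB signalling, had 18.1, and CCNY had 15.8. TSPAN31, a tetraspanin, had 14.4 (chr12:58139317-58139758). This peak lay near that of ATP23 on chromosome 12, so the values of these genes need not be independent. ACSS2, which makes acetyl-CoA from acetate, had 13.9. CAST, the calpain inhibitor calpastatin, had 13.4. Of these 8 peaks, 7 overlapped H3K27ac and the CAST peak did not. The start of the canonical transcript of the gene, described further on, lay within 1 kb of each of them except the lower KRT8 peak. Repeated sequence, measured as 32-base words found again elsewhere in the assembly, made up 22% of the ATP23 peak and 17.0% of the strongest KRT8 peak.

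By width, the leading member was a 1969-bp peak at the canonical start of LMNA, which encodes the nuclear lamins A and C (chr1:156084746-156086714). It was followed by the 1727-bp KRT8 peak, a 1656-bp peak in GSE1, a 1635-bp peak in EPAS1 and a 1587-bp peak in NIBAN2. EPAS1 encodes the hypoxia-inducible factor HIF-2α, and its peak was the only one of these 5 without H3K27ac. Such widths were uncommon, because 47 of the 1938 inner-start peaks (2.43%, 1.79 to 3.21) reached 1 kb.

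Inner-start peaks were intermediate in strength and width. Their median −log10 q was 2.98 (2.97 to 3.15, interquartile range 2.21 to 4.53), against 3.30 (3.24 to 3.402) for gene-start peaks and 2.49 (2.41 to 2.49) for remaining distal peaks. The median width was 323 bp (314 to 333), against 341 (336 to 345) and 253 bp (250 to 256). A −log10 q of at least 5 was reached by 337 inner-start peaks (17.4%, 15.7 to 19.2), by 20.7% of the gene-start peaks and by 8.38% of the remaining distal peaks. The difference from gene-start peaks was -3.28 percentage points (-5.07 to -1.37), and that from distal peaks was 9.01 points (7.21 to 10.9).

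At the edge of the rule, the peak nearest to the limit of 3 kb was in SOCS2 (3004 bp, −log10 q 1.55), followed by 1 in SLC22A18 (3014 bp, 3.92). Peaks at 2996 and 2981 bp from an outer start were left out, with −log10 q of 3.54 and 11.5. At the limit of 1 kb from the inner start, peaks in STX1A (1000 bp, 2.63) and ATAD2 (999 bp, 6.01) were kept, and peaks at 1002 and 1005 bp were left out (3.24 and 5.47).

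H3K27ac overlapped 698 of the 1938 inner-start peaks by at least 1 bp (36.02%, 33.9 to 38.2), where the share over all H3K4me3 peaks was 31.1%. It overlapped 33.4% (32.5 to 34.3) of the gene-start peaks and 24.5% (23.4 to 25.7) of the remaining distal peaks. Inner-start peaks thus exceeded distal peaks by 11.5 percentage points (9.11 to 13.9), and gene-start peaks by 2.61 points (0.325 to 4.94). The latter 2 classes were not matched in distance, as gene-start peaks could lie up to 3 kb from their start and inner-start peaks up to 1 kb. The small excess over gene-start peaks changed sign, to -0.305 points (-2.98 to 2.42), when peaks within 1 kb were merged. It was -1.68 points (-3.55 to 0.213) when the limit of 3 kb from an outer start was lowered to 1 kb. That setting changed both classes, because gene-start peaks were then only those within 1 kb of an outer start. When peaks of both marks had to reach a −log10 q of 5, H3K27ac overlapped 12.8% of the inner-start peaks, and the excess over distal peaks was lost (-1.65 points, -6.37 to 3.29). The median inner-start peak with H3K27ac was covered by it over 73.1% (69.6 to 76.4) of its length, against 63.4% (62.0 to 65.1) at gene starts. With H3K27ac allowed within 1 kb, the shares were 54.0% for inner-start, 52.3% for gene-start and 36.8% for distal peaks. With 50% of the H3K4me3 peak required to be covered, the excess over distal peaks was smaller, 5.34 points (3.16 to 7.57). That over gene-start peaks was 3.15 points (1.11 to 5.28).

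The comparison with gene-start peaks depended on peak strength. All H3K4me3 peaks were divided into 4 parts of the list at −log10 q of 2.20, 2.97 and 4.33. From the weakest to the strongest part, H3K27ac overlapped 27.03%, 30.9%, 42.9% and 43.0% of the inner-start peaks. The corresponding shares of gene-start peaks were 21.7%, 24.3%, 33.8% and 48.1%. Inner-start peaks therefore exceeded gene-start peaks by 5.31 (1.05 to 9.88), 6.58 (2.399 to 11.0) and 9.08 points (4.29 to 14.0) in the 3 weaker parts. In the strongest part the difference was -5.06 points (-9.60 to -0.434). Distal peaks had the smallest share in every part, 18.5%, 22.2%, 30.5% and 37.4%.

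**Figure D1:**
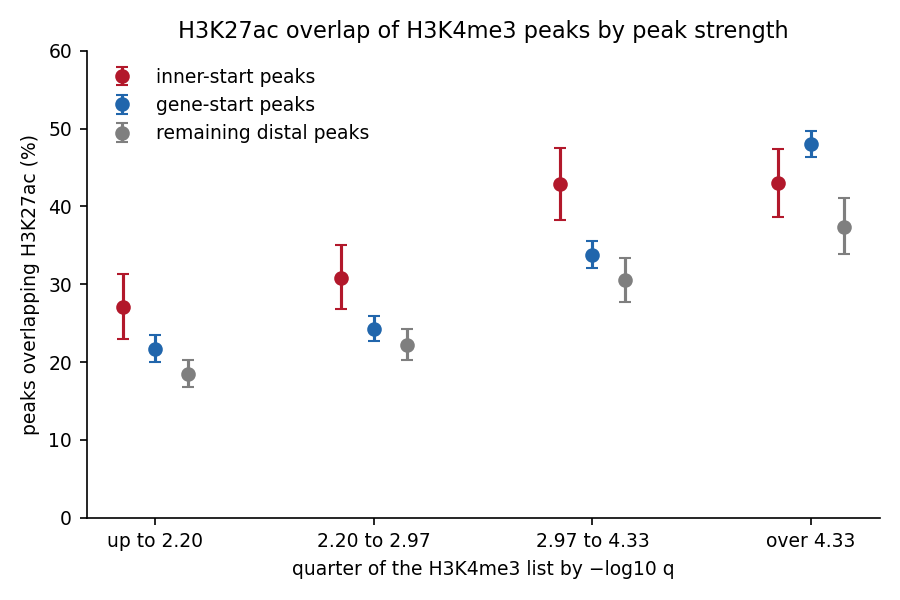
Share of H3K4me3 peaks that overlapped an H3K27ac peak (vertical axis, percent) in 4 parts of the H3K4me3 list by −log10 q (horizontal axis), for inner-start, gene-start and remaining distal peaks. Points are shares and bars exact 95% intervals for counting error. The inner-start share lay above the gene-start share in the 3 weaker parts and below it (43.0% against 48.1%) in the strongest.

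Among inner-start peaks, those with H3K27ac were stronger and wider. Their median −log10 q was 3.51 (3.30 to 3.62), against 2.93 (2.92 to 2.97) without H3K27ac, and their median width 392 bp (369 to 409) against 294.5 bp (287 to 307). The strongest members without H3K27ac were in CAST (13.4), MGAT1 (12.6), ARVCF (10.7), RTF1 (10.5) and FAM200A (9.38). MGAT1 encodes an early enzyme of complex N-glycan synthesis. Peaks with and without H3K27ac lay at the same median distance from the outer start, 18.4 kb in each group.

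The CpG content of inner-start peaks had 2 maxima. In the 500 bp around each peak centre, the ratio of observed to expected CpG had a median of 0.592 (0.575 to 0.609), against 0.659 (0.653 to 0.665) for gene-start and 0.283 (0.276 to 0.291) for distal peaks. Among inner-start peaks, bins of 0.1 reached 12.8% of the peaks at ratios of 0.2 to 0.3 and 14.7% at 0.7 to 0.8, with 8.62% at 0.4 to 0.5 between them. A window was called CpG-dense when this ratio was at least 0.6 and its GC content at least 50%. That held for 921 inner-start peaks (47.5%, 45.3 to 49.8), for 55.7% of the gene-start peaks and for 13.9% of the distal peaks. The difference was -8.21 points (-10.6 to -5.80) from gene-start peaks and 33.7 points (31.3 to 36.1) from distal peaks. The median GC content of inner-start and of gene-start peaks was 61.8%, so the classes differed in CpG dinucleotides and not in the median of G and C. H3K27ac overlapped 34.1% of the CpG-dense and 37.8% of the other inner-start peaks, a difference of -3.66 points whose interval (-7.91 to 0.615) included 0.

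**Figure D2:**
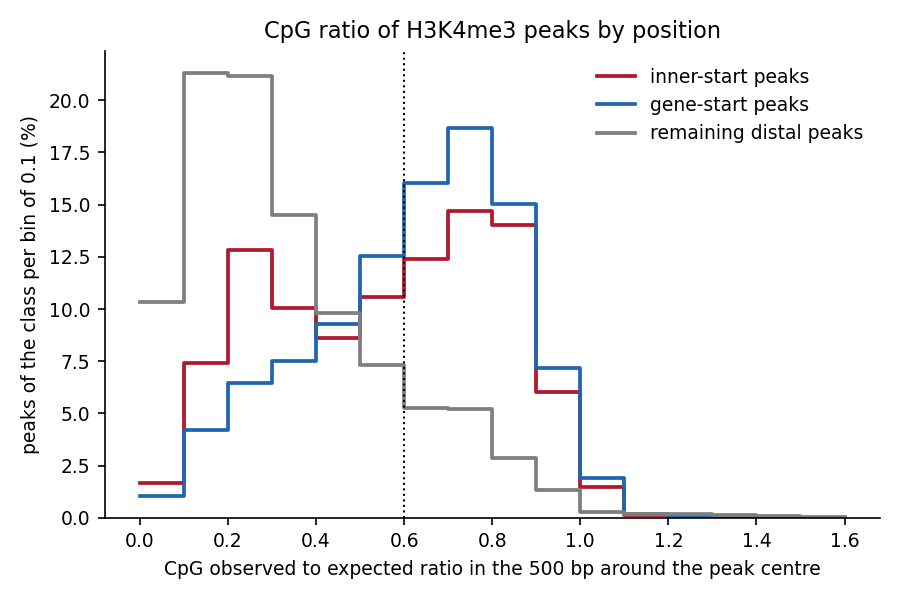
Observed to expected CpG ratio in 500 bp around the peak centre (horizontal axis) against the percentage of the peaks of each class per bin of 0.1 (vertical axis). The dotted line is the ratio of 0.6 used to call a window CpG-dense. Inner-start peaks had maxima at 0.2 to 0.3 and at 0.7 to 0.8, distal peaks at 0.1 to 0.3 and gene-start peaks at 0.7 to 0.8.

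The label of alternative promoters was uncertain for many members. Within 1 kb of 990 inner-start peaks (51.1%, 48.8 to 53.3) lay the start of a canonical transcript, which Ensembl chose to represent its gene. Any protein-coding gene was counted here, not only the gene assigned to the peak. In the genes of these transcripts the outer start belonged to an annotated transcript that begins further upstream than the canonical one. Such a peak is described as at the canonical start, although another start could be nearer, as for the KRT8 peak of 1.34, which was nearer to the start of another KRT8 transcript. A start of a MANE Select transcript, chosen by RefSeq and Ensembl together, lay within 1 kb of 985 inner-start peaks. Another 592 peaks (30.5%) lay at another start in a gene whose canonical start also had H3K4me3 within 1 kb. The last 356 (18.4%, 16.7 to 20.2) lay at another start in a gene whose canonical start had none. Of the 1360 genes, 773, 440 and 273 had at least 1 peak of these kinds, and a gene could have several.

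The 3 kinds differed in strength and CpG content. Peaks at a canonical start had a median −log10 q of 3.58 (3.41 to 3.75) and a median width of 362 bp, against 2.82 (2.63 to 2.93) and 285 bp for peaks at another start with the canonical start marked. Where the canonical start was unmarked, the values were 2.91 (2.71 to 2.96) and 288 bp. CpG-dense windows made up 66.3% (63.2 to 69.2) of the peaks at a canonical start, 21.1% (17.9 to 24.6) of those with the canonical start marked elsewhere, and 39.3% (34.2 to 44.6) of those with it unmarked. The latter 2 kinds differed by -18.2 points (-24.2 to -12.2). H3K27ac overlapped 36.9%, 36.7% and 32.6% of the peaks, and the interval of each difference included 0. It was 1.74 points (-2.53 to 6.002) between peaks at the canonical start and all others, and 4.07 points (-2.22 to 10.2) between the other kinds. Peaks more than 1 kb from the canonical start were thus weaker and poorer in CpG, while a difference in H3K27ac was not detectable with this number of peaks.

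Several strong members lay over 1 kb from the canonical start. They were chosen after their values had been seen, as the 8 highest of each kind. Where the canonical start was unmarked, the highest −log10 q were found in LEMD1 (9.35), PLEC (7.79), NAV1 and PTP4A3 (7.40 each), MARCHF10 (7.36), PTPRB (7.09), GNB5 (6.9985) and GATA2 (6.95). NAV1 encodes a microtubule-binding navigator protein, PTP4A3 the phosphatase PRL-3, PTPRB a receptor phosphatase of endothelial cells, GNB5 a G-protein beta subunit and GATA2 a transcription factor of blood progenitors. H3K27ac overlapped the peaks of LEMD1, PLEC and PTP4A3 only. The peak edge lay 990 bp from the assigned start in GATA2, 855 bp in MARCHF10 and 556 bp in NAV1, and 4 to 178 bp in the others. Where the canonical start was also marked, KRT8 had 2 of the highest values (13.0 and 11.9), followed by ARVCF (10.7), RACK1 (9.35), HDGF (8.81), FNTA (8.34), FDFT1 (8.24) and BCL11A (8.01). RACK1 encodes a ribosomal scaffold protein, FNTA the alpha subunit of farnesyltransferase, FDFT1 squalene synthase and BCL11A a repressor of fetal globin genes. H3K27ac overlapped these peaks except those of ARVCF, FDFT1 and BCL11A. From the outer start, the assigned and canonical starts lay at 5.85 and 4.19 kb in RACK1 and at 22.5 and 22.1 kb in FNTA. In KRT8 the assigned starts lay at 42.9 and 47.8 kb and the canonical start at 44.9 kb. They were farther apart in HDGF (19.5 and 15.25 kb), FDFT1 (12.8 and 7.17 kb), ARVCF (29.7 and 0 kb) and BCL11A (4.55 and 0.813 kb). Whether the nearer peaks are separate from the canonical promoter was not tested. In the FNTA peak 88.9% of the 32-base words were found again elsewhere in the assembly.

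The state of the outer start was examined because an alternative promoter may replace the outer one or act beside it. Of the 1360 genes with an inner-start peak, 821 (60.4%, 57.7 to 63.0) had no H3K4me3 within 1 kb of the outer start. The remaining 539 genes (39.6%, 37.0 to 42.3) had the mark at both, where 38.2% of all 20163 outer starts and 43.3% (42.4 to 44.1) of the 12192 genes with an eligible inner start were marked. Counted by peak, 1169 of 1938 (60.3%, 58.1 to 62.5) belonged to a gene with an unmarked outer start. This share was 70.0% (67.0 to 72.8) for peaks at the canonical start, 28.7% (25.1 to 32.5) at another start with the canonical start marked, and 86.0% (81.9 to 89.4) with the canonical start unmarked. The latter 2 shares are not independent of how the kinds were defined, because the canonical start lay within 1 kb of the outer start in the genes of 560 inner-start peaks (28.9%). Of the 769 marked outer starts, counted once per inner peak, 243 (31.6%) also lay within 1 kb of the outer start of another protein-coding gene, to which the mark may belong. In LMNA, for example, that gene was MEX3A.

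**Figure D3:**
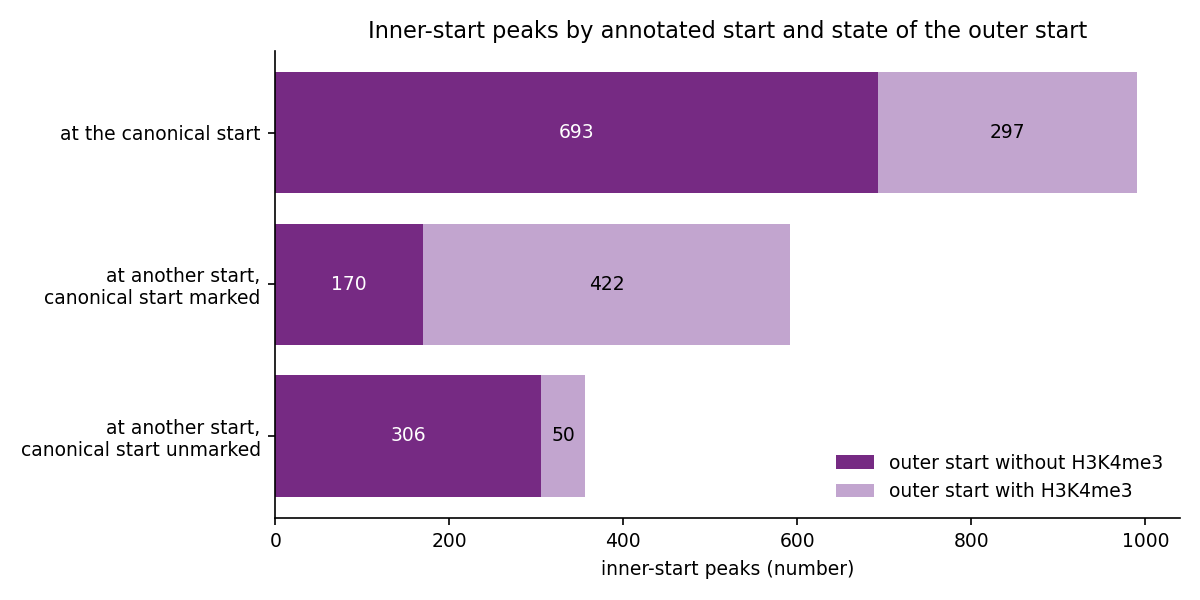
Number of inner-start peaks (horizontal axis) within 1 kb of a canonical start, at another start of a gene with a marked canonical start, and at another start of a gene with an unmarked canonical start. Dark bars count peaks whose gene had no H3K4me3 within 1 kb of the outer start and light bars those whose outer start was marked. The dark part is 70.0%, 28.7% and 86.0% of the 3 bars.

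Among the strongest peaks in genes with an unmarked outer start were those of ATP23, TNIP1, CCNY and CAST, and that of TBC1D31 (12.6). Their inner starts lay 35.8, 12.6, 89.5, 138 and 30.8 kb downstream of the outer start. Where both starts were marked, the inner peak was the stronger in 250 of 769 cases (32.5%, 29.2 to 35.9). The median −log10 q was 2.97 (2.93 to 3.16) at the inner and 4.21 (3.89 to 4.50) at the outer start. H3K27ac overlapped 41.5% (38.0 to 45.1) of the inner-start peaks in genes with a marked outer start and 32.4% (29.7 to 35.2) of those with an unmarked one, a difference of 9.06 points (4.67 to 13.4). The CpG-dense share went the other way, 35.9% and 55.2%, a difference of -19.3 points (-23.6 to -14.8). H3K27ac also lay within 1 kb of the outer start for 38.7% of the inner-start peaks with H3K27ac and for 24.3% of those without, which differed by 14.4 points (10.1 to 18.7).

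The inner starts were spread along the genes. The median distance from the outer start was 18.4 kb (17.3 to 19.6, interquartile range 7.64 to 47.7). It was under 10 kb for 626 peaks, 10 to 30 kb for 611, 30 to 100 kb for 483 and over 100 kb for 218. H3K27ac overlapped 34.8%, 37.8%, 36.4% and 33.5% of these peaks, whose intervals overlapped. The share with an unmarked outer start was 60.4%, 61.7%, 57.8% and 61.9%. Relative to the canonical transcript, 983 peaks (50.7%) were in an intron, 479 (24.7%) touched a coding exon, 182 (9.39%) an untranslated or noncoding exon, and 288 (14.9%) lay outside it. For 6 peaks no canonical transcript was found. Introns held 72.1% (68.3 to 75.7) of the peaks at another start with a marked canonical start and 34.9% (31.98 to 38.0) of those at the canonical start.

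Peak centres lay mostly downstream of the inner start. The centre was downstream for 1275 peaks (65.8%, 63.6 to 67.9), with a median of 178 bp (154 to 193). The rule limits the distance but not the side. Gene-start peaks within the same 1 kb were downstream in 75.1% (74.1 to 76.0), with a median of 374 bp (365 to 383). The bins from 0 to 200 and from 200 to 400 bp held the most inner-start centres, 369 and 373. The bin just upstream of the inner start held 209 centres, more than the next bin outward (167), whereas at gene starts the corresponding bins held 237 and 554. The inner start was the nearest of a median of 3 distinct starts within 1 kb, while each gene has a single outer start. Offsets were therefore not measured alike in the 2 classes. The start itself was inside the peak for 507 members (26.2%, 24.2 to 28.2), and 1388 (71.6%) had at least 2 distinct starts within 1 kb.

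**Figure D4:**
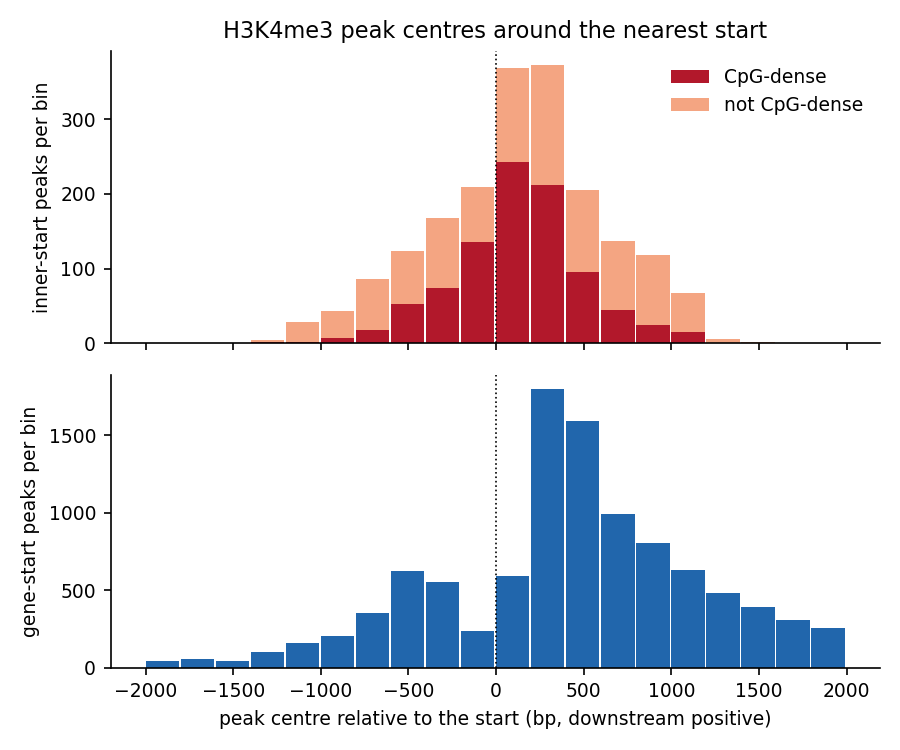
Number of H3K4me3 peak centres per 200-bp bin (vertical axes) by distance from the nearest start (horizontal axis, bp, downstream positive). Upper panel, inner-start peaks around the inner start, split by CpG density; lower panel, gene-start peaks around the outer start. Inner-start centres were most frequent from 0 to 400 bp, and gene-start centres were sparse in the bin just upstream of the start (237).

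The annotated products of these starts were mixed. The nearest start belonged to a protein_coding transcript for 1229 peaks (63.4%, 61.2 to 65.6), to a transcript without a defined coding sequence for 324, to a retained-intron transcript for 261 and to a nonsense-mediated decay transcript for 122. H3K27ac overlapped 36.1%, 38.9%, 31.4% and 36.9% of them, with overlapping intervals. A protein_coding start lay within 1 kb of 1619 peaks (83.5%). Where the inner transcript and a transcript from the outer start both had an annotated start codon, the inner one used a different start codon in 495 of 989 cases (50.1%, 46.9 to 53.2). That share was 44.4% (40.3 to 48.7) at canonical starts and 63.6% (55.7 to 71.0) at another start with the canonical start unmarked. A start of a long noncoding RNA gene lay within 1 kb of 277 peaks (14.3%, 12.8 to 15.9), of which 259 had one on the opposite strand. These peaks were CpG-dense in 66.8%, against 44.3% of the others (difference 22.5 points, 16.3 to 28.3). They overlapped H3K27ac in 40.1% against 35.3%, with an interval of the difference (-1.33 to 11.0) that included 0.

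Short sequence motifs were counted in the 300 bases from 250 before to 49 after each start, on both strands. The 1779 distinct inner starts under the peaks were set beside the outer starts of all protein-coding genes and beside the 62779 eligible inner starts, marked or not. GGGCGG, a core of the Sp1 site, was found at 61.2% (58.8 to 63.4) of the marked inner starts, at 52.2% of the gene starts and at 19.7% of the eligible inner starts. CCGGAAG, an ETS site, was found at 8.38%, 11.8% and 3.60%, the NRF1 motif CGCNTGCGC at 7.08%, 8.94% and 2.00%, and CACGTG, an E-box, at 7.195%, 8.32% and 4.97%. Motifs without CG showed other orders. TATAAA was found at 5.12% (4.14 to 6.24) of the marked inner starts, 10.9% of the gene starts and 17.6% of the eligible inner starts, and CCAAT at 25.1%, 35.8% and 32.6%. The AP-1 motif TGANTCA was found at 7.42%, 6.36% and 8.42%. Among marked inner starts it was found at 2.92% (1.92 to 4.26) of those under CpG-dense peaks and at 11.3% (9.33 to 13.4) of those under the other peaks. GGGCGG was found at 78.5% (75.7 to 81.2) of the starts under CpG-dense peaks and at 46.2% (43.0 to 49.4) of the others. Matches of different motifs may overlap. Of the starts printed above, those of CCNY, RTF1, ARVCF, FAM200A and NR3C1 had GGGCGG in their 300 bases. Those of KRT8 and ERBB2 had CCAAT and none of the other motifs, and that of ACTG1 had none of the 7.

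Inner starts were marked in 1353 of the 12192 protein-coding genes that had an eligible inner start (11.1%, 10.5 to 11.7). Of the eligible start positions, 6296 of 62779 (10.0%, 9.79 to 10.3) lay within 1 kb of a member. The share was 34.3% (32.3 to 36.3) for canonical starts, 15.2% (14.8 to 15.7) for other starts of protein_coding transcripts and 5.84% (5.61 to 6.08) for starts of other transcript types only. Genes with more annotated starts had a member more often. The share was 5.23% (4.39 to 6.18) of the genes with 2 to 4 start positions, 8.82% with 5 to 9, 14.7% with 10 to 19 and 21.8% (19.4 to 24.3) with 20 or more. The median was 11 start positions in genes with a member and 8 in eligible genes. An inner-start peak was found in 10.2% (9.36 to 11.0) of the eligible genes with a marked outer start and in 11.8% (11.1 to 12.6) of those with an unmarked one.

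Most genes had a single member. There was 1 inner-start peak in 959 genes and more than 1 in 401 (29.5%, 27.1 to 31.99). PLEC, which encodes the cytolinker plectin and is known for many alternative first exons, had 9, and KRT8 had 8. ACTG1, HNRNPH1, IRF1, LMNA and SEPTIN9 had 6 each. The 9 PLEC peaks lay at starts 3.21 to 34.2 kb downstream of the outer start, had −log10 q of 1.72 to 7.79, and 6 of them overlapped H3K27ac. All were at starts of protein_coding transcripts other than the canonical one, which was unmarked, and the outer start of PLEC was marked (8.56).

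In KRT8, the 8 peaks formed a group of 7 and a single peak. The group lay at starts 42.9 to 48.1 kb from the outer start, around the canonical start at 44.9 kb. In the direction of transcription, its −log10 q were 13.0, 1.34, 5.52, 20.8, 7.79, 11.9 and 1.72. H3K27ac overlapped all of them but the last. The single peak (6.93, with H3K27ac) lay near a start at 23.5 kb. Both marks also lay within 1 kb of the outer start, with an H3K4me3 peak of 18.9. No outer start of another protein-coding gene lay within 1 kb of it. Whether these marks belong to a gene just beyond that limit was not tested. CpG ratios in KRT8 ran from 0.101 at the single peak to 0.606. In KRT8, repeated words made up 47.1% of the peak of 11.9 and 46.7% of the peak of 1.34.

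In LMNA, the 1969-bp peak (5.79) lay at the canonical start, 32.1 kb from the outer start, and overlapped H3K27ac. The other 5 LMNA peaks lay near starts at 40.6 and 43.6 kb. Their −log10 q were 5.61, 3.38, 3.20, 2.26 and 3.11, and all but the first of them (1173 bp wide) overlapped H3K27ac. CpG ratios in LMNA were 0.154 to 0.320. In ACTG1, by contrast, the 6 peaks had ratios of 0.427 to 0.840 and lay at starts 9.21 to 11.7 kb from an outer start with neither mark. In the direction of transcription, their −log10 q were 5.62, 3.71, 2.93, 1.55, 5.07 and 4.27, and only the first 3 overlapped H3K27ac. The canonical start was within 1 kb of the last 3.

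In HNRNPH1, a splicing factor gene, the 6 peaks had −log10 q of 1.58 to 6.39 and 2 of them overlapped H3K27ac. In IRF1, a transcription factor of the interferon response, they had 1.35 to 5.61, and only the highest overlapped H3K27ac. In SEPTIN9, a septin cytoskeleton gene, they lay at starts 7.38 to 93.6 kb from the outer start, had 1.88 to 4.36, and 3 overlapped H3K27ac.

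**Figure D5:**
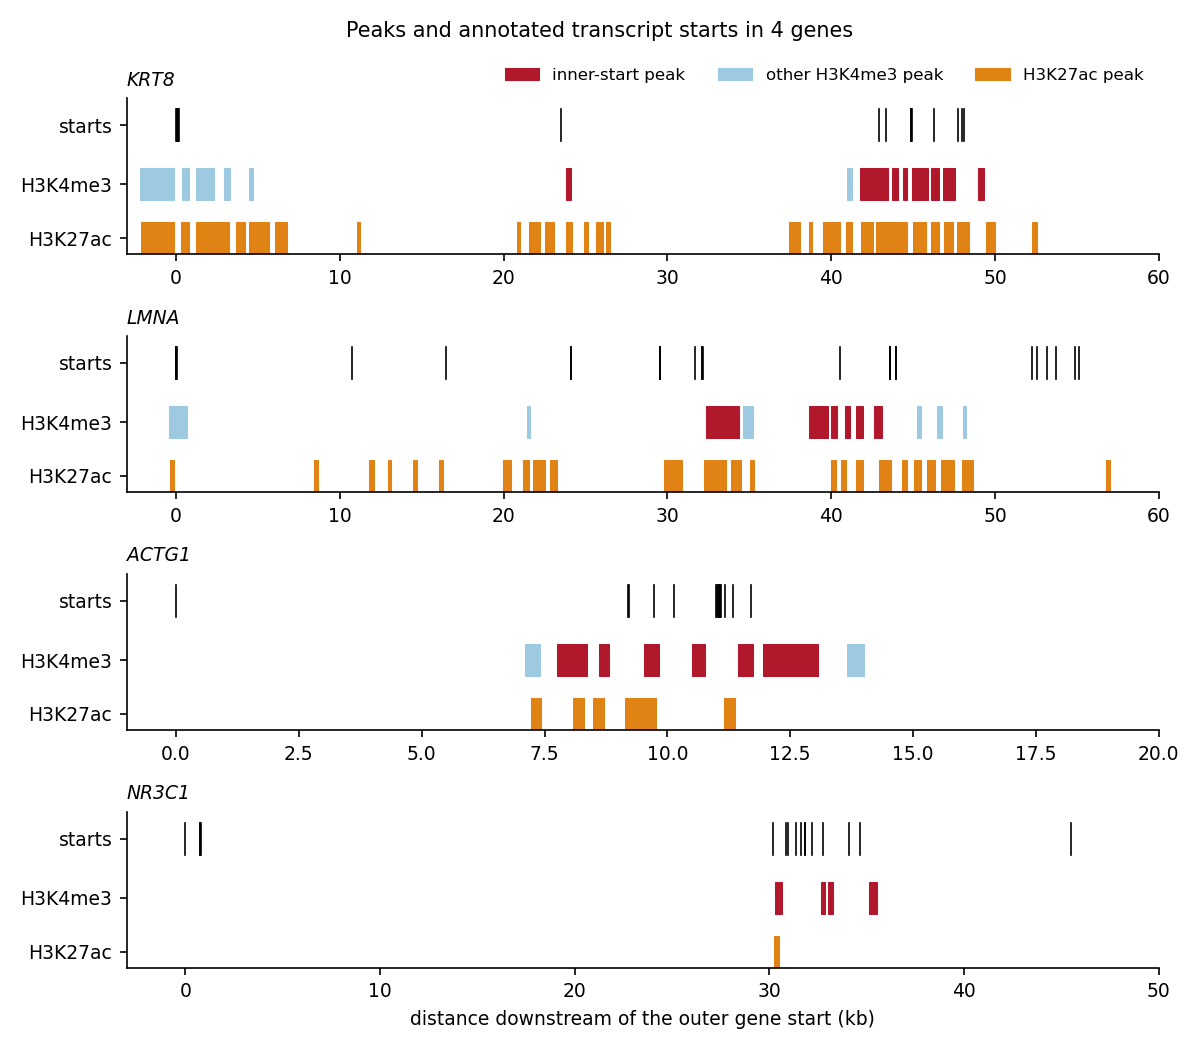
Annotated transcript starts (black), inner-start peaks (red), other H3K4me3 peaks (light blue) and H3K27ac peaks (orange) in KRT8, LMNA, ACTG1 and NR3C1, by distance downstream of the outer gene start (horizontal axis, kb). KRT8 and LMNA had both marks within 1 kb of the outer start, where they may belong to a neighbouring gene, and around inner starts. ACTG1 and NR3C1 had neither mark at the outer start. NR3C1 is shown up to 50 kb.

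Genes known for alternative promoters were examined as a list of 40. Of the 37 with an eligible inner start, 13 (35.1%, 20.2 to 52.5) had a member, where the share over all eligible genes was 11.1%. They had a median of 15 start positions, and the list was chosen with earlier results of these data known. The highest peak of NR3C1 (7.59, with H3K27ac) lay at a start 30.2 kb from an outer start with neither mark. The canonical start of NR3C1, at 31.8 kb, lay close by and also had H3K4me3 within 1 kb. The other 3 NR3C1 peaks (1.55, 1.67 and 1.67) had no H3K27ac. The highest FOXP1 peak (FOXP1 is a forkhead repressor) had 7.39 at a start 453 kb inside the gene, without H3K27ac. RUNX2, a regulator of bone formation, had 5.47 without H3K27ac. BCL2L1, which encodes the apoptosis regulator BCL-X, had 4.55, and the DNA methyltransferase gene DNMT3A had 4.53, both with H3K27ac. PTHLH, the gene of parathyroid hormone-related protein, had 3.76 with H3K27ac and no mark at its outer start. In ERBB2 the peaks at 15.3 and 18.8 kb (3.51 and 2.63) lay at starts other than the canonical one, which was unmarked, and only the higher overlapped H3K27ac. The remaining genes with a member were ACACA, CASP8, GRB10, MITF, RUNX1 and SHC1. Over the whole list, 14 of 23 peaks overlapped H3K27ac, against 36.02% of all inner-start peaks.

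Genes of the cytoskeleton were examined as a further list. Among 44 actin and adhesion linkers, 12 (27.3%, 14.96 to 42.8) had a member, against 11.1% of all eligible genes. Their median of 18 start positions was above the 8 of all eligible genes, and of the genes with 10 to 19 start positions 14.7% had a member. H3K27ac overlapped 13 of their 28 peaks, where it overlapped 36.02% of all inner-start peaks. After PLEC, the highest −log10 q were those of LIMA1 (7.36), SPTBN1 (6.67) and MACF1 (6.39), none with H3K27ac, and of the tropomyosins TPM1 and TPM4 (4.27 each, with H3K27ac). The MACF1 peak lay at a start 328 kb from the outer start.

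Among transcription factors, 31 of 91 eligible genes (34.1%, 24.5 to 44.8) had a member, and 16 of the 51 peaks overlapped H3K27ac. The shares over all were again 11.1% of the eligible genes and 36.02% of the inner-start peaks, for these and the next lists. After NR3C1 and FOXP1, the highest peaks were those of ATF3 (6.12), a stress-response factor, GLI3 (6.06), a Hedgehog effector, SOX6 and RUNX2 (5.47 each), none with H3K27ac. Among chromatin regulators, 19 of 72 (26.4%, 16.7 to 38.1) had a member, and 9 of 30 peaks overlapped H3K27ac. BRD2, a reader of acetylated histones, had 5.47 with H3K27ac, CHD3 had 5.08 without, and the demethylase gene KDM2A had 2 peaks of 4.58, of which 1 overlapped it. Receptors and kinases had the smallest share of the 5 functional lists, 13 of 74 (17.6%, 9.70 to 28.2), whose interval included the 11.1% of all eligible genes. H3K27ac overlapped 5 of their 19 peaks. The collagen receptor gene DDR1 had 5.47 with H3K27ac, and PRKCZ had 4.54 and PRKCD 4.43 without. The median of 10 to 18 start positions in these lists was above the 8 of all eligible genes. Among all eligible genes with 10 to 19 start positions, 14.7% had a member. The lists shared genes, so their shares were not independent. Of the transcription factors with a member, RUNX1, RUNX2, NR3C1, FOXP1 and MITF were also in the list of genes known for alternative promoters. So were DNMT3A of the chromatin regulators and ERBB2 of the receptors and kinases.

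The label of the cell line was checked at outer gene starts. H3K4me3 lay within 1 kb of 8 of 14 outer starts of lung adenocarcinoma and epithelial marker genes, where 38.2% of all outer starts were marked, and of any start of 10 of the genes. The marked genes were NKX2-1, a transcription factor of lung epithelium, and 7 general epithelial genes. The lung-specific genes SFTPB, SFTPA1 and SFTPC, which encode surfactant proteins, and NAPSA had neither mark at the outer start. H3K27ac lay within 1 kb of 8 of these outer starts. For markers of other cell types, H3K4me3 was found at 1 of 14 outer starts (ACTA2) and at any start of 3 genes, and H3K27ac at no outer start. No share over all genes is available here for H3K27ac or for any start, so those counts have no background. Of the 8 eligible lung and epithelial markers, 5 had a member (62.5%, 24.5 to 91.5), against 11.1% of all eligible genes. These were KRT8, KRT7, CLDN4, EPCAM and NAPSA, with 16 inner-start peaks, of which KRT8 alone held 8. H3K27ac overlapped 14 of the 16, against 36.02% of all inner-start peaks. CLDN4, which encodes the tight-junction protein claudin 4, had no mark at its outer start, and its peaks of 6.39 and 2.93 at the canonical start 31.5 kb downstream both overlapped H3K27ac. The 4 KRT7 peaks (1.32 to 2.96) also did, and so did the EPCAM peak (2.20). The NAPSA peak (1.55) did not. The 12 eligible markers of other cell types had no inner-start peak (0%, 0 to 26.5), and this interval included the 11.1% of all eligible genes.

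The share of H3K4me3 peaks that were inner-start peaks was 7.63% to 13.2% on chromosomes 1 to 22. Their H3K27ac share had a wider range but rested on fewer peaks. It was 49.2% (40.02 to 58.4) of 122 peaks on chromosome 5 and 44.9% (36.3 to 53.6) of 136 on chromosome 11, but 17.5% (7.34 to 32.8) of 40 on chromosome 4 and 17.6% (8.40 to 30.9) of 51 on chromosome 6. The H3K27ac share of all H3K4me3 peaks by chromosome is not available here. Whether these values are particular to inner-start peaks was therefore not tested. Chromosome X had 6 inner-start peaks, none with H3K27ac, and chromosome Y had none among 7 H3K4me3 peaks. No 32-base word was repeated elsewhere in the assembly for 1657 inner-start peaks (85.5%, 83.9 to 87.0). In 74 peaks (3.82%, 3.01 to 4.77) over 50% of these words were repeated. Without these peaks H3K27ac overlapped 36.3% (34.1 to 38.5) of the rest.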

How the data were processed

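H3K27ac and H3K4me3 were profiled by ChIP-seq in untreated H2087 cells, with 1 library per mark. Per the labels and the study's methods, the authors aligned reads to hg19 with Bowtie 1.1.1 and called peaks with MACS2 2.1.0. SAMtools 1.2, Picard 1.118, bcl2fastq 1.8.4 and ChIPseeker 1.6.6 are also named. The methods name the input as meant for normalization. Whether it served as the control in peak calling, the threshold and the treatment of duplicate reads are not given in the sources used here. The last column of the deposited lists has no header and was read from its values as the authors' −log10 q-value per summit, with a lowest value of 1.31 for H3K4me3 and 1.30 for H3K27ac. This value depends on depth, which is unknown, so that absence of a peak may be shortage of reads.

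The 20282 H3K4me3 entries gave 18585 distinct intervals, and the H3K27ac list 24096. Distances run from the peak edge. Transcripts came from GENCODE 44 mapped to hg19, and sequences from the GRCh37 primary assembly. An eligible gene had a transcript start over 3 kb from all protein-coding gene starts. Python 3.11.15, NumPy 2.4.6, SciPy 1.17.1 and matplotlib 3.10.9 were used. Shares have Clopper-Pearson, differences Newcombe and medians order-statistic 95% intervals. Class assignment and overlaps were tested on simulated data. The members and gene lists were chosen with earlier results of these data known. Named were the 8 highest peaks, the 5 widest, the 5 highest with H3K27ac, without it and with an unmarked outer start, the 5 genes with most peaks (ties added) and up to 6 genes per list by −log10 q. The 8 highest peaks of each kind of peak away from the canonical start, and the sequences of NR3C1 and ERBB2, were added after their values had been seen. Alternatives varied the q cutoff, the unit of a peak, the distances, the transcripts and the overlap. The result of 1 further gene list is not reported here. Of the 15 markers of other cell types, 14 were found in the annotation.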

Additional observations from a re-analysis of the deposited data

How the results depend on the processing

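No paired analysis was possible because a single library stood for each mark, so leaving out replicates was not possible either. Over 10 results and 14 alternative settings, 116 values were computed, of which 61 stayed within the interval of the reported value (for the count, within 1.5 times), 51 moved beyond it and 4 changed sign. The cutoff on the H3K4me3 list alone was chosen after seeing the data. Unless a clause below gives the reason, the cause was not tested. The excess of inner-start over gene-start peaks in H3K27ac changed sign under 3 settings. It was -0.305 points with peaks within 1 kb merged and -5.85 with −log10 q of at least 5 in the H3K4me3 list. It was -1.68 over 1 kb from gene starts, a setting that also confined gene-start peaks to 1 kb. Under the other settings it was 0.773 to 3.85. The excess over distal peaks was -1.65 points with that cutoff in both lists and 5.34 to 17.2 under the others.

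With a −log10 q minimum of 5 for H3K4me3 and H3K27ac, 337 inner-start peaks remained, in 2.51% of the eligible genes. Their outer start was unmarked in 84.9%, since weaker outer peaks were also dropped, and their nearest start was protein_coding in 69.7%. The median CpG ratio was 0.700, the median −log10 q 6.27 and the median width 495 bp. H3K27ac overlapped 12.8%, since weaker H3K27ac peaks were dropped. With the cutoff on H3K4me3 only, it overlapped 46.3%, 7.64 points above distal peaks, and the other values were the same.

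With peaks within 1 kb merged, H3K27ac overlapped 39.5%, 14.6 points above distal peaks, the protein_coding share was 66.6%, the median −log10 q 3.24 and the width 386 bp. An entry per summit gave a width of 343 bp. Over 1 kb from gene starts there were 3410 peaks in 17.5% of the eligible genes, with H3K27ac at 33.7%, an unmarked outer start in 52.2% and a CpG ratio of 0.569. Over 5 kb, 10.2% of the eligible genes had a peak.

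With the inner start within 0.5 kb, the CpG ratio was 0.649, the −log10 q 3.16, the width 337 bp and the share of genes 9.56%. Within 2 kb, these were 0.541 for CpG, 313 bp and 12.2%. With protein_coding transcripts only, the outer start was unmarked in 63.6%, the CpG ratio was 0.637, the −log10 q 3.16, the width 337 bp and the share of genes 14.7%, and the protein_coding share has no alternative there, being complete by construction. Away from the starts of genes of any type, the values were 57.8% unmarked, 61.1% protein_coding, a CpG ratio of 0.568 and 8.96% of the genes. By distance from the peak centre, 60.9% were protein_coding.

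With 50% of the H3K4me3 peak covered, H3K27ac was found in 25.3%, 5.34 points above distal peaks, and within 1 kb in 54.0%, 17.2 points above. With the outer start marked within 3 kb, 52.1% were unmarked. Unknown depth limits every statement on a missing mark.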
